A study of Mus musculus with 8 samples.

Results

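Fos and Fosb are the 2 genes described here, taken by name from a deposited table of 1428 genes measured in mouse colon tumours. RNA sequencing compared 4 tumour libraries of wild-type C57BL/6N mice (WT) with 4 tumour libraries of C57BL/6N mice in which the microRNA genes miR-29ab1 were disrupted in the intestinal epithelium (KO). The mice had received the carcinogen azoxymethane and the colitis-inducing agent dextran sodium sulfate to give tumours. The KO label names villin, a promoter active in gut epithelium, so blood, stromal and lymphoid cells of a KO tumour would retain the microRNA, and RNA came from whole tumour. The labels give neither age nor sex, and do not say whether WT mice carried a floxed allele or whether each library came from 1 animal, so tests measure the spread between libraries. No row of the table names miR-29, so the disruption itself was not checked.

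The Fos proteins are bZIP transcription factors that pair with Jun proteins to form AP-1, a complex that binds DNA and switches on genes of growth, matrix remodelling and inflammation. Fos and Fosb are immediate-early genes: growth factor signals through Ras and ERK, and stress signals through JNK and p38, raise their transcripts within minutes, and both the RNA and the Fos protein are short-lived. Fosb is also spliced to a truncated and more stable protein, which gene counts do not separate from the full form. In the intestine both respond to growth factors and injury, and both are also known to respond to dissection, cooling or lack of oxygen in excised tissue.

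The start regions of the 2 genes are shown because both lay higher in KO tumours and both are known to be switched on through promoter elements. They run from 250 bases before to 50 bases after the annotated start (RefSeq, GRCm38.p6, a C57BL/6J assembly), at chr12:85473640-85473939 on the plus strand for Fos and at chr7:19309996-19310295 on the minus strand for Fosb. Capitals mark TGACG, the core of the cyclic AMP response element (CRE), and the TATA box, which reads TATAAA.
Fos: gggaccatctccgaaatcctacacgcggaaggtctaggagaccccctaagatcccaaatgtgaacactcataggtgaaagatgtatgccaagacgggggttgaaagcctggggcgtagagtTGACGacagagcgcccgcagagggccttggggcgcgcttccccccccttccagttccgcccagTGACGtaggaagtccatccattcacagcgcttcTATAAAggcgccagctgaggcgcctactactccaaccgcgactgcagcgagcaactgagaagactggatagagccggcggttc
Fosb: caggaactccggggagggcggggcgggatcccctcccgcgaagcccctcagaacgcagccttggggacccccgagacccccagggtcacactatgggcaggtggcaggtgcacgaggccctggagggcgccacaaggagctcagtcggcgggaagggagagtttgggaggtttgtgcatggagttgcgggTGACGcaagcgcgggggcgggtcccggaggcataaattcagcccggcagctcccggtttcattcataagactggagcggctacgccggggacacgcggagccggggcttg

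Each start region held TGACG at a similar distance, 66 bases before the start in Fos and 60 bases before it in Fosb, and Fos held another 129 bases before the start. Both strands were searched, and 20.8% of 32851 promoter windows of 300 bases held TGACG on either. TATAAA was found 33 bases before the start of Fos, not in the Fosb window, and in 13.6% of all windows. Neither window held the full CRE, whose 8 bases TGACGTCA contain the core and which 1.79% of windows held. The AP-1 site, TGANTCA, was in neither and in 7.81% of windows. Also found in neither were the CCAAT box, in 37.4% of windows, and the CArG box, the binding site of serum response factor, in 1.63%. Sequence farther than 250 bases before the start was not searched, so sites there would be missed. The windows were rich in G and C, at 58.7% in Fos and 68.3% in Fosb, against a median of 52.7% over all windows.

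The microRNAs of the disrupted genes are shown with the stretch of Fos that matches them, since a microRNA can lower transcripts that carry a match to its seed. Capitals mark the seed (bases 2 to 8 of the microRNA) and the 7 bases that match it. The microRNAs are those of RefSeq, GRCm38.p6, and both share 1 seed. The miR-29b sequence is also made from a separate locus that the label does not name.
mmu-miR-29a-3p: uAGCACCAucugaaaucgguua
mmu-miR-29b-3p: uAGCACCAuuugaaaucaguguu
Fos: ttggaattaaccTGGTGCTggattgtatct

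The match in Fos starts 386 bases after the stop codon, in a 3′ untranslated region of 815 bases, at chr12:85476844-85476850 of GRCm38 by the GENCODE M21 annotation. None of the 6 annotated Fosb coding transcripts held TGGTGCT beyond the stop codon, the longest such region having 2302 bases. The longest 3′ untranslated region held the match in 13.1% of 21020 genes. Among 2763 genes with a region within 1.25 times the length of that of Fos the share was 8.36%, and among 2962 genes near the length of Fosb it was 21.6%. The Fos region also held 4 copies of ATTTA, a motif of short-lived transcripts, and the Fosb region 1. At least 4 copies stood in 13.03% of regions near the length of Fos, and at least 1 in 93.4% of those near the length of Fosb. The part of the seed match in the higher Fos of KO tumours was not tested.

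Both genes were higher in all 4 KO libraries than in any WT library, Fosb about 2.91-fold and Fos 1.61-fold in the group means. Only Fosb passed an adjusted p of 0.05 in the authors' DESeq2 test. Values are normalized counts, gene counts that the authors divided by 1 size factor per library, and every gene in the table has an unadjusted p below 0.05, which selects large differences. The authors' adjusted p-values imply 19985 genes tested, of which 7.06% lie below an unadjusted p of 0.05 and 0.0400% below an adjusted p of 0.05. Within the table, 23.9% of genes have all 4 KO libraries above all 4 WT libraries, so that separation is common among listed genes.

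Fos, the c-Fos gene, stood at 2049.6, 2252, 1738 and 1597 normalized counts in WT replicates 1 to 4. In KO replicates 1 to 4 it stood at 3512, 2308, 2909 and 3555. KO replicates 1 and 4 were high and KO replicate 2 was close to the WT range. Its value exceeded that of the highest WT library, replicate 2, by a factor of 1.03, and the 95% Poisson intervals of the 2 values, 2212 to 2408 and 2159 to 2348, overlapped. These intervals, and those of shares given later, cover counting error only. The WT mean was 1909 ± 296 (SD, n = 4) and the KO mean 3071 ± 588 (SD, n = 4). The authors' deposited table puts the log2 fold change at 0.69, with an unadjusted p of 0.00174 and an adjusted p of 0.336 from DESeq2, so the difference does not pass the threshold over all genes.

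Fosb, the more weakly expressed gene of the pair, stood at 86.6, 100.7, 121.4 and 68.8 normalized counts in WT replicates 1 to 4. In KO replicates 1 to 4 it stood at 388.5, 170.4, 346.1 and 194.7. The KO libraries fell into a higher pair, replicates 1 and 3, and a lower pair, replicates 2 and 4, and even the lowest was 1.40 times the highest WT library. These nearest values came from 159 reads in KO replicate 2 and 120 reads in WT replicate 3, and their Poisson intervals, 144.9 to 199.0 and 100.6 to 145.1, met at the edges. The WT mean was 94.3 ± 22.2 (SD, n = 4) and the KO mean 275 ± 109 (SD, n = 4). The authors' deposited table puts the log2 fold change at 1.54, with an adjusted p of 0.0447 from DESeq2, and by p-value Fosb ranks 5 of the 1428 genes.

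**Figure D1:**
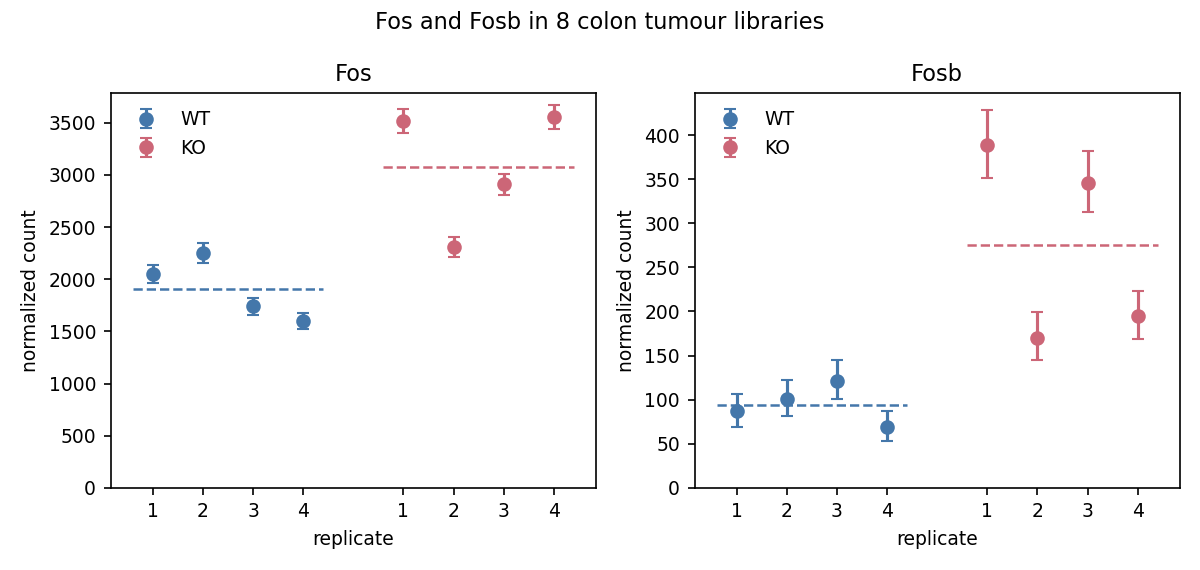
Normalized counts of Fos (left) and Fosb (right) by library, with WT in blue and KO in red; bars are 95% Poisson intervals of the reads and dashed lines are group means. All KO points lie above all WT points in both panels, with KO replicate 2 (2308) just above WT replicate 2 (2252) for Fos.

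The call of Fosb differed between tests. In an edgeR quasi-likelihood refit of the whole reads behind the listed values, its log2 fold change was 1.54, with an unadjusted p of 0.00106. The adjusted p was 0.867 over 19985 genes. That refit held only the 1428 listed genes, so its estimates of spread came from genes selected by p-value. The adjustment ranked all unlisted genes after the listed ones. Fos had a log2 fold change of 0.69 in that refit, with an unadjusted p of 0.00423. Of the 1428 genes, 77.9% kept their sign and an unadjusted p below 0.05 in that refit, and none passed an adjusted p of 0.05. An exact permutation test of log2 values over the libraries, two-sided, gave p = 0.0286 for each gene, the smallest p that 4 against 4 can give. That test repeats a difference by which the genes entered the table and is no separate evidence.

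The spread among KO tumours differed between the 2 genes. The highest KO library exceeded the lowest by 2.28 times for Fosb and 1.54 times for Fos, and the coefficient of variation was 39.5% and 19.1%. Among the WT libraries it was 23.6% for Fosb and 15.5% for Fos. KO replicate 4 had the highest Fos value of all libraries but lay below KO replicates 1 and 3 in Fosb. KO replicate 3 ranked 3 of 8 for Fos and 2 of 8 for Fosb. Across the 8 libraries, after each group's mean was subtracted from the log2 values, Pearson's r between the 2 genes was 0.42, given as a description of libraries that share their size factors.

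Per length, Fos was far more abundant than Fosb in every library. The table gives gene lengths of 2352 bases for Fos and 3751 bases for Fosb. Fos had 812 ± 126 normalized counts per kilobase in WT (SD, n = 4) and 1306 ± 250 in KO (SD, n = 4). Fosb had 25.2 ± 5.93 per kilobase in WT and 73.3 ± 28.9 in KO. The level of Fos per length was thus between 22.8 and 37.8 times that of Fosb in WT libraries, and between 13.4 and 29.1 times in KO libraries. The ranges overlap.

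The ratio of the genes within a library is free of the size factor. Fosb made up 4.05%, 4.28%, 6.53% and 4.13% of the reads of both genes in WT replicates 1 to 4. The share was 9.96%, 6.87%, 10.6% and 5.19% in KO replicates 1 to 4. The groups overlapped, since the share in KO replicate 4, with a Wilson 95% interval of 4.53% to 5.94%, lay below that in WT replicate 3, with an interval of 5.48% to 7.75%. KO replicates 1 and 3, with intervals of 9.08% to 10.9% and 9.68% to 11.7%, lay clear of every WT interval. The log2 ratio of Fosb to Fos was -4.36 ± 0.35 in the WT libraries (SD, n = 4) and -3.55 ± 0.52 in the KO libraries (SD, n = 4). The difference was 0.81 with a standard error of 0.31, a 1.75-fold higher ratio in KO. An exact permutation test, two-sided, gave p = 0.0571, and no smaller value than 0.0286 is possible here. The ratio thus did not differ between groups past the threshold, and 3 of the 4 KO libraries lay above every WT library.

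**Figure D2:**
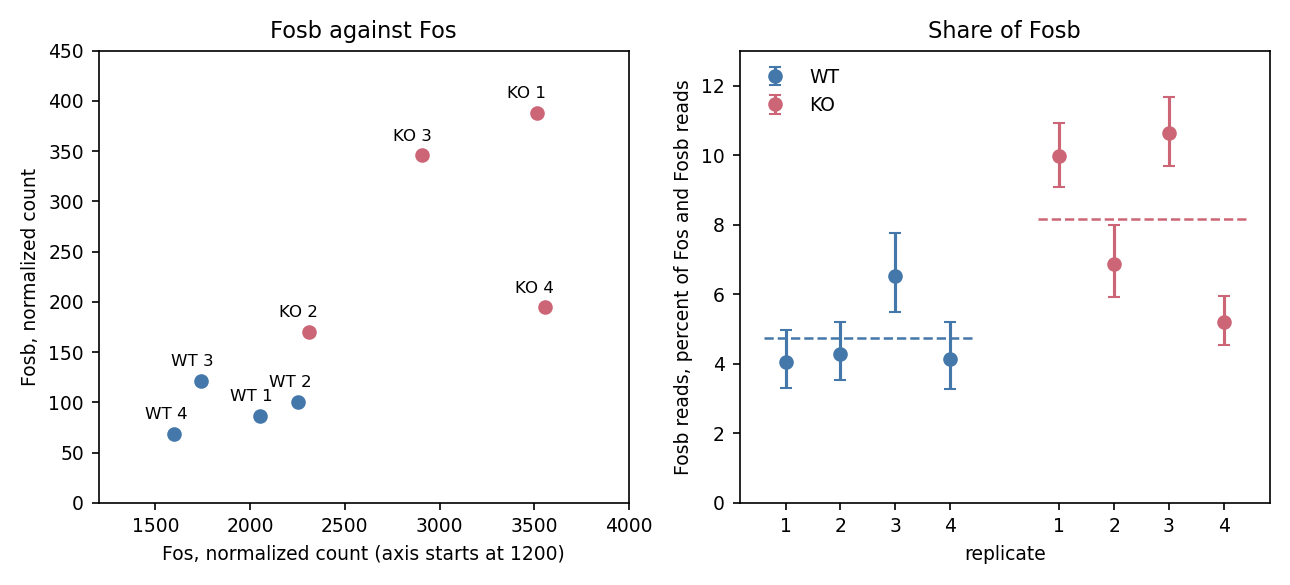
Left, Fosb against Fos in normalized counts, 1 point per library. Right, the percentage of Fos and Fosb reads that came from Fosb, with Wilson 95% intervals and dashed group means; KO replicate 4 (5.19%) lies below WT replicate 3 (6.53%), while KO replicates 1 and 3 lie near 10%.

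KO replicate 4 stood apart in the table as a whole. Of the 829 genes listed higher it topped the KO group in 622, and of the 599 listed lower it was at the bottom in 355. It had 2180787 reads over the listed genes against 1202677 to 1533770 in the others. Without it the ratio of the KO mean to the WT mean was 1.52 for Fos and 3.20 for Fosb. The difference in the log2 ratio of Fosb to Fos was then 1.02, with p = 0.0571 by exact permutation, two-sided, the smallest that 3 against 4 can give.

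Other genes of the AP-1 machinery and its surroundings were looked up in the table. Since 7.06% of all tested genes lie below an unadjusted p of 0.05, short lists would hold few listed genes at that share. Of the 4 Fos family genes Fos and Fosb were listed, and Fosl1 and Fosl2 were not. None of the 3 Jun genes, the partners of Fos, and none of 15 other bZIP partners of the ATF, BATF, MAF and CREB groups was listed. The table's own annotation puts 4 genes in the bZIP family, Fos, Fosb, the repressor Nfil3 and 9430076C15Rik, and both of the latter were listed lower, at log2 fold changes of -0.54 and -0.96. A gene that is not listed has no value here, and the table does not tell whether it was unchanged, variable or too low to test.

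Among EGF receptors and their ligands, which act upstream of Fos and Fosb, none of 11 was listed, Egfr, Areg and Hbegf included. The ERK feedback inhibitors gave 2 of 11 genes (18.2%, against 7.06% of all tested genes), which differed in sign. Dusp6, a phosphatase that ERK induces and that inactivates ERK, averaged 1800.2 ± 312 normalized counts in WT tumours and 2619 ± 700 in KO tumours (SD, n = 4 each), and Spred3, an inhibitor of Ras signalling to ERK, 87.9 ± 39.3 in WT tumours and 39.3 ± 15.1 in KO tumours.

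Of 14 JNK and p38 genes, 3 were listed (21.4%, against 7.06% of all tested genes), also with both signs. Mapk14, the main p38 kinase, averaged 1843 ± 247 normalized counts in WT tumours and 2336 ± 125 in KO tumours (SD, n = 4 each). Mapk11, another p38 kinase, averaged 164 ± 48.0 in WT tumours and 81.5 ± 32.9 in KO tumours. All 4 KO libraries of Mapk11 lay below all 4 WT libraries, as they do in 20.7% of all listed genes. Mapk10, a JNK kinase best known from neurons, ran from 2.89 to 11.7 in KO and from 0 to 3.03 in WT, too few counts to carry a fold. None of these genes passed an adjusted p of 0.05 in the authors' test.

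Of 26 genes known to respond to AP-1, 3 were listed (11.5%, against 7.06% of all tested genes). All 3 were lower in KO, as were 599 of the 1428 listed genes, and none passed an adjusted p of 0.05. In Mmp3 and Il1b the 4 KO libraries lay below the 4 WT libraries, as they do in 20.7% of all listed genes. Mmp3, a matrix protease, stood at 55.4, 48.3, 418 and 415 normalized counts in WT replicates 1 to 4 and at 46.3, 34.3, 39.1 and 24.5 in KO replicates 1 to 4. WT replicates 3 and 4 were high, and WT replicates 1 and 2 lay just above the KO range. Mmp13, a collagenase, ran from 628 to 6851 in WT and from 44.0 to 818 in KO, and the groups overlapped. Il1b, an inflammatory cytokine, averaged 1158 ± 112 in WT tumours (SD, n = 4), above KO values that ranged between 67.5 (replicate 4) and 742 (replicate 2). The DESeq2 adjusted p in the authors' deposited table is 0.0717 for Mmp3, 0.656 for Mmp13 and 0.689 for Il1b, and the other 23 targets, among them Ccnd1, Plau and Ptgs2, were not listed.

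Genes that share the rapid response of Fos and Fosb to handling of tissue were examined next. Of 36 other immediate-early genes, 1 was listed (2.78%, against 7.06% of all tested genes): Dusp1, a stress-induced phosphatase of p38 and JNK. Dusp1 stood at 698, 843, 810.0 and 755 normalized counts in WT replicates 1 to 4 and at 681, 600.1, 636 and 476 in KO replicates 1 to 4. All its KO libraries lay below all WT libraries, as they do in 20.7% of all listed genes. By the authors' deposited table its log2 fold change is -0.38, opposite in sign to those of Fos and Fosb, with a DESeq2 adjusted p of 0.700. Egr1, Ier2, Atf3, Nr4a1, Zfp36 and Btg2, which are usually induced alongside Fos, were not listed and so have no value here.

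Of 20 heat shock and handling stress genes, 2 were listed (10%, against 7.06% of all tested genes). Hspb1, a small heat shock protein, stood at 79.8, 61.6, 53.6 and 78.9 normalized counts in WT replicates 1 to 4 and at 31.8, 17.1, 31.1 and 12.7 in KO replicates 1 to 4. It was lower in every KO library than in any WT library, as are 20.7% of all listed genes. Its log2 fold change was -1.56, with a DESeq2 adjusted p of 0.0738 in the authors' deposited table. In the refits of Hspb1 the adjusted p was 0.0353 with DESeq2, past the threshold, and 0.867 with edgeR. That DESeq2 refit put 37 of the 1428 listed genes past the threshold, against 8 in the authors' test, and the edgeR refit put none. Txnip, a thioredoxin inhibitor that responds to glucose and stress, ran from 6964 to 16313 in KO and from 4738 to 7340 in WT, where the groups overlapped. None of 14 hypoxia genes was listed. The labels used here give no collection time and no interval between death and freezing, and the part of handling in the difference of Fos and Fosb was not tested.

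**Figure D3:**
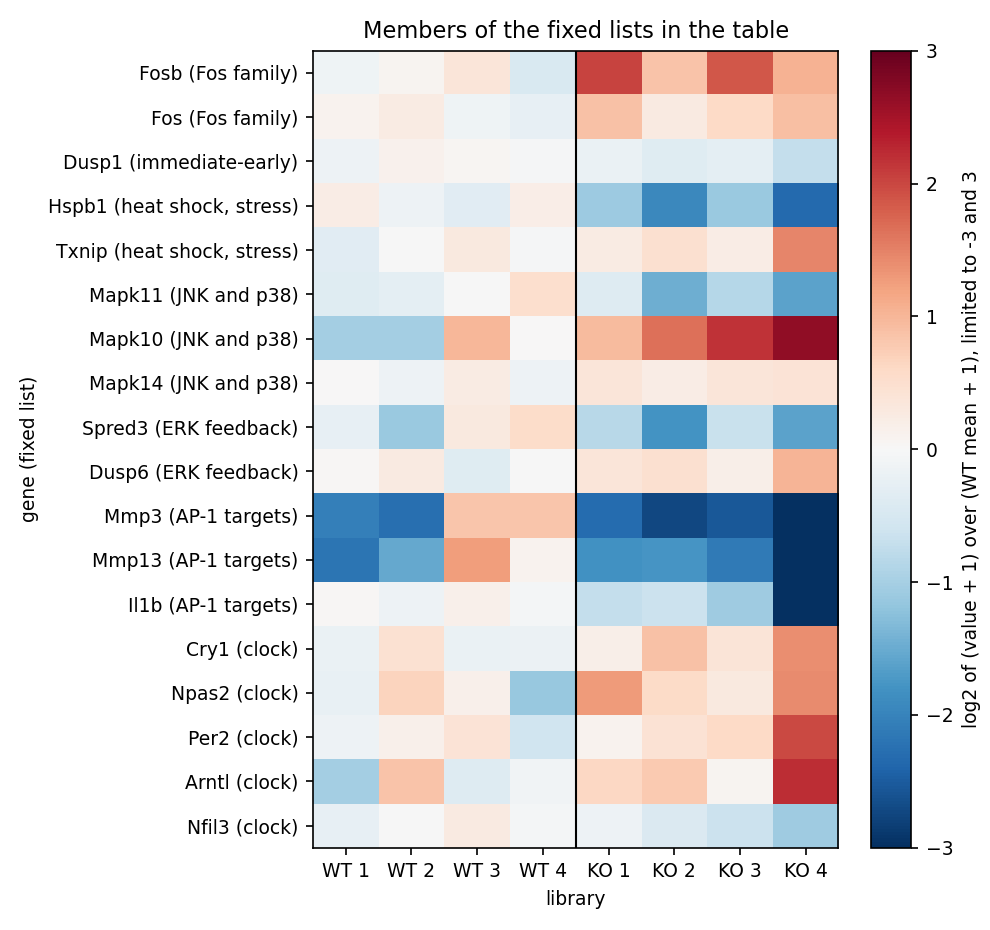
Log2 of each library's value plus 1 over the WT mean plus 1, for Fos, Fosb and the 16 other genes counted in the 12 signalling, stress, target and clock lists that are in the table; red is higher and blue lower than the WT mean. Fos and Fosb are red in all 4 KO columns, while Dusp1 and Hspb1 are blue there, and KO replicate 4 has the most extreme colour in most rows.

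Clock genes are given because immediate-early genes and the clock both follow the time of day and feeding. Of 17, 5 were listed (29.4%, against 7.06% of all tested genes). Of these, 4 were higher, Arntl, Npas2, Per2 and Cry1, as were 829 of the 1428 listed genes. Per2, a repressor of the clock, stood at 496, 610.2, 723 and 360.2 normalized counts in WT replicates 1 to 4 and at 586, 743, 823 and 2162 in KO replicates 1 to 4. The groups overlapped in all 5 genes. Without KO replicate 4 the KO mean of Per2 was 1.31 times the WT mean, against 1.97 times with it, and that of Arntl 1.44 times against 2.24 times. Nfil3, which is both a clock output and a bZIP factor, ran from 122 to 228 in KO and from 215 to 307 in WT. The part of collection time in the Fos and Fosb difference was not tested.

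Taking those 12 lists together without Fos and Fosb, 16 of 192 genes were listed (8.33%, against 7.06% of all tested genes below an unadjusted p of 0.05), 8 higher and 8 lower. Over all listed genes 829 were higher and 599 lower, with a median log2 fold change of 0.48. None passed an adjusted p of 0.05 in the authors' DESeq2 test. The library that moved this count most was WT replicate 4. Without it 4 of the 16 kept an unadjusted p below 0.05 and their sign in the edgeR refit, against 14 with all libraries. Over all 1428 listed genes 643 did so without it, against 1112 with all libraries.

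Among the 1428 genes Fosb was of middling abundance, above 50.6% of them by mean, and Fos was above 91.9%. Fold changes in such a table depend on abundance. Among 84 genes listed higher with a mean within 1.5 times that of Fosb, the median log2 fold change was 0.74, against 1.54 for Fosb. Among 86 such genes near the mean of Fos it was 0.55, against 0.69 for Fos.

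**Figure D4:**
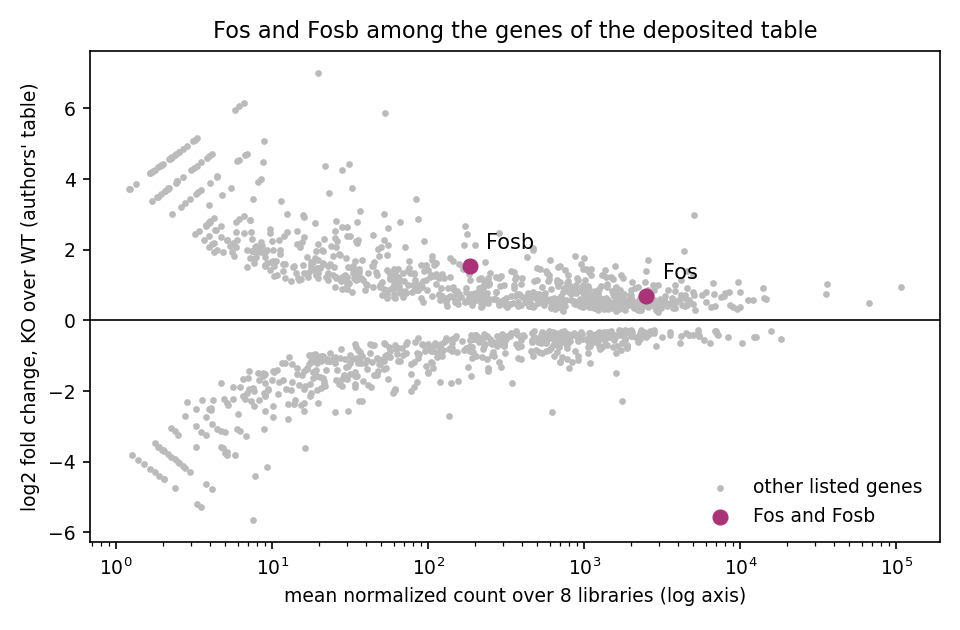
The log2 fold change of KO over WT in the authors' table against the mean normalized count (log axis) for each of the 1428 listed genes, with Fos and Fosb in purple. The gap around 0 comes from the selection at an unadjusted p below 0.05; Fosb (1.54) lies above most genes of its abundance and Fos (0.69) within the band of its own.

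Cell type markers in the table are given next. Only markers listed at an unadjusted p below 0.05 enter the sums below, so a difference between groups is largely built in by that selection. In whole tumour RNA a change in the number of cells of a type and a change in RNA per cell cannot be told apart. Of 18 B and plasma cell markers, 13 were listed (72.2%, against 7.06% of all tested genes). All 13 were higher, as were 829 of the 1428 listed genes. Their summed normalized counts ran from 143 to 328 in WT and from 271 to 3674 in KO. The sum was highest in KO replicate 4, and the lowest KO sum was that of replicate 1. Of 17 epithelial markers Cdhr5, Cdhr2 and Mep1a were listed (17.6%), all higher. Their sums were 10265 to 12493 in WT and 12971 to 38530.1 in KO, again highest in KO replicate 4. The 5 listed of 12 tuft and enteroendocrine markers (41.7%) summed to 538 to 915 in WT and 1185 to 3285 in KO. Chat was at 0 in the 4 WT libraries. The 3 listed of 17 T and NK cell markers (17.6%) summed to 59.3 to 78.1 in WT and 127 to 159 in KO.

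The listed markers of mast cells, of macrophages and neutrophils, and of stem cells were lower in KO, as were 599 of the 1428 listed genes. Mcpt1 and Tpsb2, the listed 2 of 10 mast cell markers (20%, against 7.06% of all tested genes), summed to 86.0 to 2191 in WT and 11.7 to 449 in KO. Mpo, the 1 listed of 15 macrophage and neutrophil markers (6.67%), had no reads in any KO library and ran from 0 to 23.3 in WT. Ascl2, the 1 listed of 9 stem cell markers (11.1%), ran from 856 to 1219 in WT and 644 to 867 in KO. The listed fibroblast, endothelial and smooth muscle markers were higher in KO. The listed 2 of 11 fibroblast markers (18.2%) summed to 65.8 to 129 in WT and 130.2 to 201 in KO. Lyve1, the 1 listed of 8 endothelial markers (12.5%), ran from 23.6 to 50.6 in WT and from 31.1 to 159 in KO. Myocd, the 1 listed of 8 smooth muscle markers (12.5%), ran from 0 to 6.81 in WT and from 2.14 to 24.0 in KO. None of 8 neuron and glia markers was listed. KO replicates 1 and 3, the libraries with the highest Fosb, had the lowest B cell sums of the KO group. KO replicate 4, the library with the highest Fos, had the highest B cell sum. The part of these cell types in the Fos and Fosb difference was not tested.

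The listed genes most like each member within groups were found over the 8 libraries from 713 candidates of at least median abundance, by Pearson's r of log2 values after each group's mean was subtracted. For Fos these were Samd9l (r = 0.88), an interferon-induced gene, Inpp5b (0.87), an inositol phosphatase, Aim1 (0.84), Kbtbd11 (0.80) and Pdlim1 (0.80), a PDZ and LIM domain protein. For Fosb they were 2010016I18Rik (0.91), Dennd4c (0.90), Htt (0.89), the huntingtin gene, Sik2 (0.86), a salt-inducible kinase, and Mdn1 (0.86). The r of these genes with the other member ran from -0.051 for Kbtbd11 to 0.62 for 2010016I18Rik. A lower r with the other member is largely built in, since each gene was picked for its high r with 1 member. With 8 libraries that share size factors, high values arise easily among so many genes, so they are given as a description.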

How the data were processed

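Total RNA of colon tumours was taken up in TRIzol and, per the labels' protocols, sequenced from strand-marking libraries. HISAT2 and DESeq2 are named in the submitters' processing notes, as is the human build GRCh38, although the gene identifiers are of the mouse C57BL/6NJ annotation. In the table's own coordinates Fos lies on chromosome 12 from 88741461 to 88744847 (plus strand) and Fosb on chromosome 7 from 18160456 to 18167782 (minus strand), and these were not compared with GRCm38. The sources used here do not say whether reads were counted by strand.

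Per the file headers the deposited signal is a normalized count per library, beside the authors' log2 fold change, p-value and adjusted p-value. With 1 size factor per library (0.933 to 1.12), 100% of values in each library came within 0.001 of whole reads, 1202677 to 2180787 per library over the listed genes. Those sums are not the library depth, which the sources used here do not state. Libraries of a group differed by more than counting noise (chi-square per degree of freedom at least 19.8), so none were merged.

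Because the table is selected by p-value, the authors' values are the main result. Whole reads were refitted with edgeR 4.0.16, DESeq2 1.42.0 and limma 3.58.1 in R 4.3.3, on the deposited size factors. Benjamini-Hochberg adjustment was over 19985 genes, although only the listed genes could be fitted. The ratio test was run in Python 3.11.15 with scipy 1.17.1. Alternatives were other tests, pseudocounts (1 and 0.1), TMM, a minimum mean of 10, a replicate block and each library left out.

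The members and the 23 gene lists (326 symbols) were chosen with earlier results of these data known. The values of 1 further list gene are not reported here, and every list count leaves it out. Named are the 2 members, each other list member in the table and the 5 genes most like each member. Symbols were matched by name or unambiguous RefSeq synonym. 9430076C15Rik was named after its values were seen, to complete the bZIP rows. List members not in the table are named as examples.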

Additional observations from a re-analysis of the deposited data

Results flagged for a closer look

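In 4 of 58 groups of 4 libraries, 1 library lay farther from the other 3 than Dixon's 95% critical value allows, where chance gives about 1 in 20. The log2 ratio of Fosb to Fos was -3.84 in WT replicate 3, above the other WT libraries, which lay between -4.57 and -4.48. Per2 stood at 2162 normalized counts and Txnip at 16313 in KO replicate 4, above the other 3 KO libraries. Cry1 stood at 565 in WT replicate 2, above the other WT libraries.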

How the results depend on the processing

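The direction of Fos, of Fosb and of their ratio was the same under every alternative run. For Fosb the call at an adjusted p of 0.05 held in the DESeq2 refit (adjusted p = 0.0220), where Hspb1 also passed (0.0353), and was lost in edgeR (log2 fold change 1.54), edgeR with a minimum mean of 10 (1.54), edgeR with TMM factors (1.41), limma with 1 added (1.47) and limma with 0.1 added (1.48), with adjusted p-values from 0.690 to 1. Of the 1428 listed genes, 37 passed in the DESeq2 refit, against 8 in the authors' test. No listed gene passed in any edgeR or limma setting. Leaving out 1 library at a time in edgeR gave log2 fold changes from 1.33 to 1.71 for Fosb and from 0.61 to 0.80 for Fos. The difference in log2 ratio ran from 0.65 to 1.02 without 1 library, and from 0.80 to 0.88 under the other settings. No called direction changed; the cause of the lost calls was not tested.

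With the replicate number as a block, edgeR gave Fosb 1.49 (adjusted p of 1) and Fos 0.68. Of the 16 other list members, 8 kept an unadjusted p below 0.05 with their sign, as did 559 of the 1428 listed genes. The paired exact sign-flip test of the ratio gave p = 0.125, the smallest that 4 pairs allow. Same-numbered libraries share only a number: their deviations correlated at -0.24 to 0.054, and 1 of the 4 WT libraries correlated best with the KO library of its number. TMM factors computed from the listed genes lowered the median log2 fold change of all listed genes from 0.48 to 0.32, and Fos to 0.52. Under TMM, 11 list members kept an unadjusted p below 0.05, 3 higher and 8 lower, as did 890 of the 1428 listed genes. Without 1 library the count of list members ran from 4 to 13, and that of all listed genes from 643 to 918. These counts were added after the data were seen. The WT level of Fosb rested on 68 to 120 reads per library.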
